A study of Mus musculus with 6 samples.

Results

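The genes of activator protein 1 (AP-1) examined here are the FOS subfamily genes Fos, Fosb, Fosl1 and Fosl2, the JUN subfamily genes Jun, Junb and Jund, and Atf3. They were chosen by symbol, with earlier results of these data known, and all 8 were found among the 24930 genes measured. The study profiled mouse primary crypt epithelium, which lies between the intestinal villi and holds the stem cells. In 3 libraries, labelled β-cateninGOF/+, the cells carried a single mutant, gain-of-function allele of β-catenin, 4 days after its induction. The other 3 libraries were controls. The deposited columns of the mutant group are named exonhet. The sources used here give neither the driver and agent of the induction nor the strain and age of the mice, and do not say whether each library is a separate animal. The p-values therefore reflect only how much these libraries vary, and part of that may be technical.

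AP-1 is a dimer of basic leucine zipper proteins that binds DNA at the sequence TGACTCA. FOS proteins need a JUN partner, whereas JUN proteins can also pair with each other or with ATF proteins such as ATF3. Fos, Fosb, Jun, Junb and Atf3 are early response genes, whose transcripts appear within minutes of growth factors, stress or injury and decay quickly, while Jund is transcribed steadily in resting cells and Fosl1 and Fosl2 are slower, partly as targets of AP-1 itself. In the intestine JUN is known to cooperate with the β-catenin partner TCF4.

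The stretches before the transcription start sites of 5 members are shown first, because they hold short sequences of the kind that cyclic AMP response element (CRE) binding and ATF proteins bind. Each runs 5′ to 3′ on the gene's strand and ends 1 base before the RefSeq start, on the GRCm38.p6 build: Fos at chr12:85473740-85473889 on the plus strand, Fosb at chr7:19310046-19310195, Junb at chr8:84978749-84978898, Atf3 at chr1:191183334-191183483 and Jun at chr4:95052223-95052372, all on the minus strand. Capitals mark the CRE core TGACG, which Atf3 has on the opposite strand, and in Jun the CRE-like letters TGACATCA.
Fos: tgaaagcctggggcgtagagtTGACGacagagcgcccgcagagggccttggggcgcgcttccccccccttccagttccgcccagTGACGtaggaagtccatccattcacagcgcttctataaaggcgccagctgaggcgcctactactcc
Fosb: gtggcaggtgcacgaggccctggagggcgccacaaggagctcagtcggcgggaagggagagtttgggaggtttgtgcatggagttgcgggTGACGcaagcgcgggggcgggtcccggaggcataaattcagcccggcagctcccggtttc
Junb: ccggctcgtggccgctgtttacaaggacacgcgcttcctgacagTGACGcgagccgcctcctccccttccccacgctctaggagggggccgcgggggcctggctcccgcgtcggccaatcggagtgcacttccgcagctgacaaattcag
Atf3: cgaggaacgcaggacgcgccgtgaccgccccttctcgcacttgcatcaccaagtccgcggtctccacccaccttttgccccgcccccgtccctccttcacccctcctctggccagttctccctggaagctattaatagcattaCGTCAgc
Jun: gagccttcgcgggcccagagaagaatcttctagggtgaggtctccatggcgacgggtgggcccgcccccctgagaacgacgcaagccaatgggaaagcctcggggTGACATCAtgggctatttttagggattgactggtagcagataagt

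A promoter sequence was found for 7 of the 8 members, all but Fosl1, and 250 bases before each start were searched on both strands. The CRE core TGACG was present in 4 of the 7, Fos, Fosb, Junb and Atf3, against 17.8% of 32851 mouse promoter windows of the same length. In Fos it began 129 and 66 bases before the start, in Junb 106, in Fosb 60 and in Atf3 7 bases before it. TGACATCA was present in Jun alone, 45 bases before the start, against 2.93% of all windows. The SP1 site GGGCGG was in 5 of the 7, Fos, Fosb, Fosl2, Jun and Atf3, against 32.7% of all windows, and the TATA box TATAAA in Fos alone, against 12.4%. The full CRE TGACGTCA, which holds the core, the AP-1 site TGACTCA, the TCF site CTTTGAT and the CArG box bound by serum response factor were in 0 of the 7 windows, and in 1.55, 4.46, 3.21 and 1.47% of all windows. The bases G and C made up 58.4 to 68.8% of each member window but that of Jund, at 47.6%, against a median of 52.4% over all windows. Both TGACG and GGGCGG hold the letters CG, and the shares over all windows were not matched for G and C content. A match is a description of letters, and its absence says only that these letters are not in this window.

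In control crypts the order of the levels, on the per-length scale of the deposited units, was Fosl2, Fos, Jund, Junb, Jun, Atf3, Fosb and Fosl1. Fosl2 had 25.2, 25.1 and 22.9 units in control replicates 1 to 3, above every control value of Fos. Means were 14.0 ± 5.97 units for Fos and 10.99 ± 1.60 for Jund (SD, n = 3, as for all means here), which overlapped. Junb and Jun, at 7.31 ± 1.36 and 5.73 ± 0.475 units, also overlapped. Atf3 lay below both at 2.52 ± 0.523 units, Fosb at 0.275 ± 0.0918 units, and Fosl1 was listed at 0 in all 3 control libraries. In all 3 mutant libraries Fos was the highest of the 8 genes. Its neighbour in that order was Fosl2 in mutant replicates 1 and 2 and Junb in mutant replicate 3.

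The comparison asked how these genes differ between mutant and control crypts. In 7 of the 8, every mutant value lay above every control value, and Fosl2 was the exception. Of the 19202 genes with any value above 0, 8.29% were apart in this way. The 6 members whose mean reached 1 unit were tested. Of these, 5 did not overlap between groups, where 8.34% of the 11837 genes tested were higher without overlap. Fosb and Fosl1 were below that mean and were not tested. No member passed limma's test at an adjusted p under 0.05, as was so for all but 0.0169% of genes, 2 that were lower and 0 that were higher. At an unadjusted p under 0.05, 5 of the 6 were higher, against 4.72% of all genes, and 0 were lower, against 3.59%. That count of 5 fell to 2 without control replicate 2, to 3 without control replicate 1, control replicate 3 or mutant replicate 1, and to 2 with sex as a covariate. All 6 had a positive log2 difference, as did 47.3% of all genes. The median log2 difference of the 6 was 1.11, against -0.02 over all genes tested, whose central 90% ran from -0.53 to 0.73. Because the members were chosen with earlier results of these data known, these comparisons with all genes are a description and not a test.

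**Figure D1:**
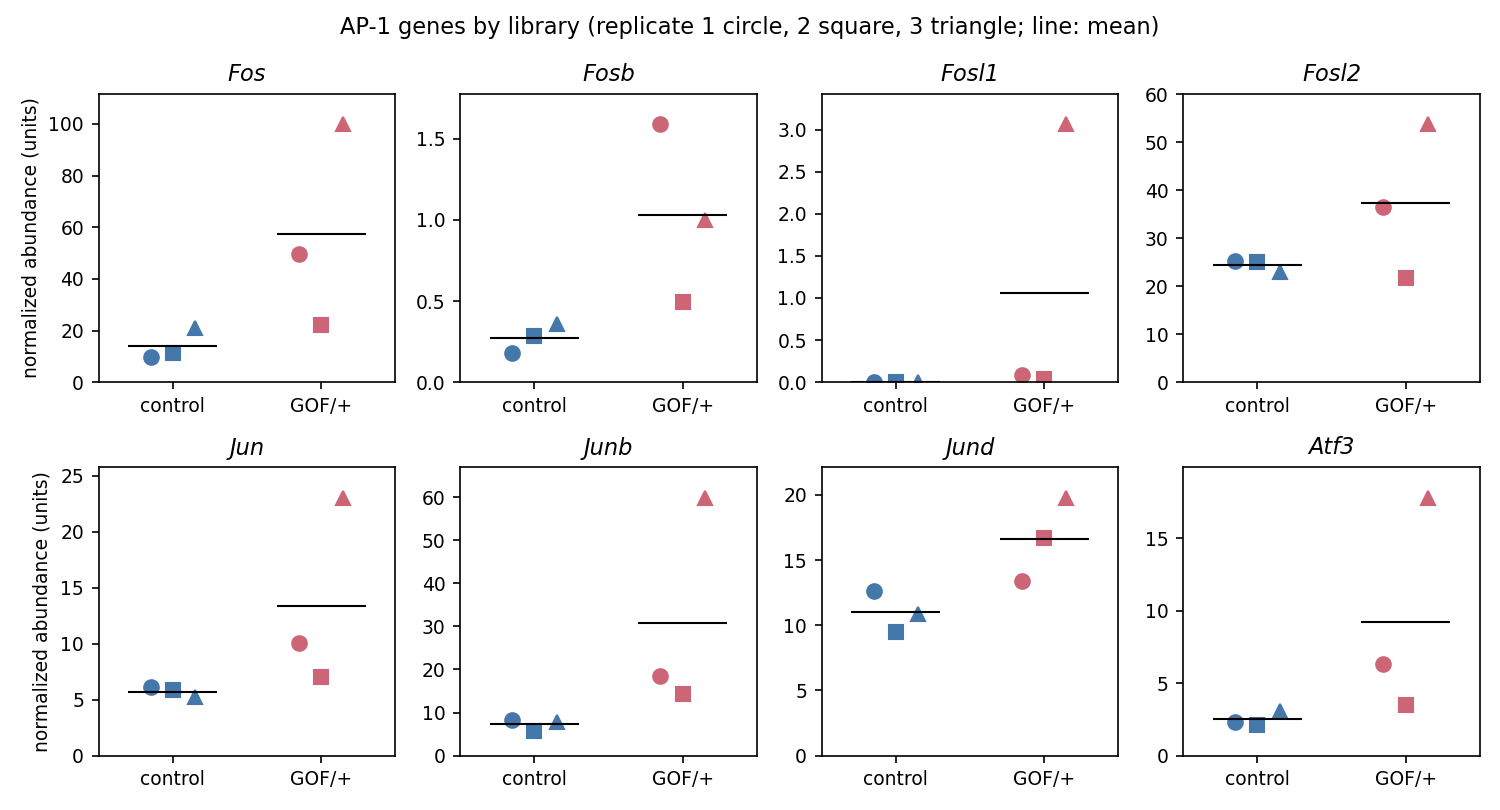
Normalized abundance (units, linear axis from 0, a separate scale for each gene) of the 8 AP-1 genes in the 3 control and 3 GOF/+ libraries; each point is a library, its shape the replicate number, and the line the group mean. Mutant replicate 3 (triangle) is the highest library for every gene but Fosb, and Fosl2 is the 1 gene whose groups overlap.

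Fos encodes the founding FOS protein. It had 9.80, 11.5 and 20.9 units in control replicates 1 to 3 and 49.8, 21.98 and 99.8 units in mutant replicates 1 to 3. The groups did not overlap, but mutant replicate 2 was only 1.05 times control replicate 3. The mean was 4.07-fold higher in mutants, with a log2 difference of 1.77 ± 0.54 (SE; adjusted p of 0.590 in limma).

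Fosb, whose protein pairs with JUN proteins as FOS does, had 0.177, 0.287 and 0.360 units in controls and 1.59, 0.495 and 1.00 units in mutants. The means differed 3.74-fold, and here mutant replicate 1 was highest. Fosl1 encodes FRA1, a FOS protein of invasive and wound-edge epithelium, and stood at 0.0907, 0.0334 and 3.06 units in mutant replicates 1 to 3 and at 0 in each control. Counted in the smallest step seen for this gene and corrected for the reads per unit of each library, these values are 2, 1 and 60 steps, so outside mutant replicate 3 they rest on 1 or 2 of those steps. With no filter on low values limma gave log2 differences of 0.64 ± 0.20 for Fosb and 0.73 ± 0.52 for Fosl1 (SE; adjusted p of 0.656 and 0.694).

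Fosl2, which encodes the FOS protein FRA2, had the highest control transcript level of the FOS subfamily. It had 25.2, 25.1 and 22.9 units in controls and 36.5, 21.7 and 53.7 units in mutants. Mutant replicate 2 lay below all controls and the other 2 mutant libraries above them. The mean was 1.53 times that of controls, with a log2 difference of 0.50 ± 0.30 (SE; adjusted p of 0.596 in limma).

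Jun encodes the transcriptional activator c-JUN. Its values were 6.15, 5.82 and 5.21 units in controls and 10.04, 7.05 and 23.0 units in mutants. The lowest mutant value was 1.15 times the highest control value. The means differed 2.33-fold, with a log2 difference of 0.94 ± 0.38 (SE; adjusted p of 0.590 in limma).

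Junb encodes a JUN protein that can oppose c-JUN at some promoters. It had 8.34, 5.76 and 7.83 units in controls and 18.4, 14.4 and 59.8 units in mutants. This was the widest gap among the 6 tested members, since the lowest mutant value was 1.72 times the highest control value. The means differed 4.22-fold, with a log2 difference of 1.67 ± 0.49 (SE; adjusted p of 0.590 in limma).

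Jund had 12.6, 9.45 and 10.9 units in controls and 13.4, 16.7 and 19.8 units in mutants. The groups did not overlap, though mutant replicate 1 was only 1.06 times control replicate 1. The mean ratio was 1.51, with a log2 difference of 0.55 ± 0.18 (SE; adjusted p of 0.590 in limma). Atf3, a stress-induced factor that can repress or activate its targets, had 2.33, 2.12 and 3.11 units in controls and 6.33, 3.53 and 17.8 units in mutants. Its means differed 3.66-fold, with a log2 difference of 1.29 ± 0.48 (SE; adjusted p of 0.590 in limma).

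The 4 members whose promoter windows hold TGACG had mean ratios of 4.07 (Fos), 3.74 (Fosb), 4.22 (Junb) and 3.66 (Atf3). The 3 other members with a window, Jun, Fosl2 and Jund, had 2.33, 1.53 and 1.51. This split was seen after the values were known, over 7 genes, and was not tested.

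The size of these differences depended on mutant replicate 3. Among the 8 genes, 6 had their highest value in that library and their next highest in mutant replicate 1, an order that 12.5% of all tested genes shared. Without mutant replicate 3 the mean ratios became 2.56 for Fos, 2.24 for Junb, 1.96 for Atf3, 1.49 for Jun, 1.37 for Jund and 1.19 for Fosl2, and the ratio of Fosb was 3.79. The median log2 difference of the 6 tested members went from 1.11 to 0.61, and 7 of the 8 genes still had both mutant values above all controls, as had 11% of the 19202 genes. Without mutant replicate 2 the median was 1.51 and all 8 genes were separated, as were 18% of the 19202, with 0 past the adjusted threshold in either fit.

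**Figure D2:**
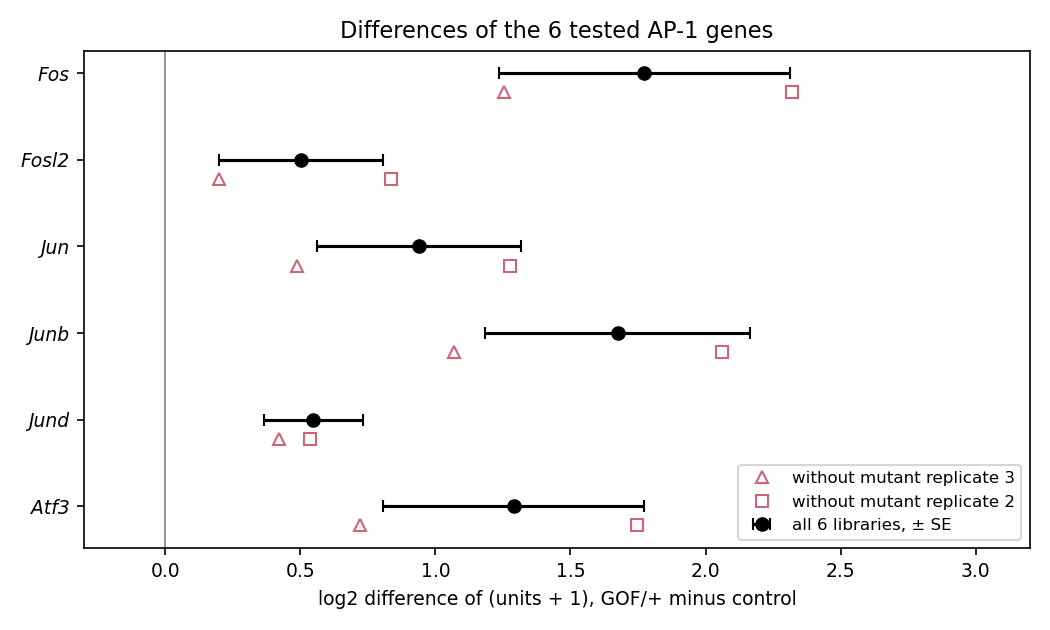
Log2 difference of (units + 1), GOF/+ minus control, for the 6 tested AP-1 genes with all 6 libraries (filled circle, bar ± SE), without mutant replicate 3 (open triangle) and without mutant replicate 2 (open square). All values lie above 0, and leaving out mutant replicate 3 moves Fos from 1.77 to 1.25 and Atf3 from 1.29 to 0.72.

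The sex of the libraries, read from Xist and Ddx3y, was male for control replicates 1 and 2 and mutant replicate 1 and female for the other 3. Between male libraries the log2 difference was 2.13 for Fos, 1.29 for Junb, 1.19 for Atf3, 0.66 for Jun, 0.52 for Fosl2 and 0.27 for Jund. Between female libraries it was 1.14, 1.79, 1.17, 1.16, 0.56 and 0.69 in the same order. Each sex has a single library in 1 arm, so neither set of values has a test. The 1 female control was the highest control for Fos, Fosb and Atf3 and the lowest for Jun and Fosl2. Mutant replicate 2 exceeded that control by a log2 of 0.07 for Fos, 0.14 for Atf3 and 0.37 for Jun. The excess was 0.57 for Jund and 0.80 for Junb, and for Fosl2 the difference was -0.08.

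Summed per library, the 8 AP-1 transcripts came to 64.6, 60.0 and 71.2 units in controls and 136, 85.8 and 278 units in mutant replicates 1 to 3. The groups did not overlap, and the means differed 2.55-fold, or 1.70-fold without mutant replicate 3. The log2 difference of 1.19 had an exact permutation p of 0.1, the smallest that 3 libraries against 3 allow (0.129 adjusted over the 9 sums and shares compared).

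The JUN sum was 27.1, 21.0 and 23.9 units in controls and 41.9, 38.1 and 103 units in mutants, apart in every library. The FOS sum was 35.2, 36.9 and 44.16 units in controls and 88.0, 44.20 and 158 units in mutants, so that mutant replicate 2 and control replicate 3 were nearly tied. FOS genes made up 56.4, 63.7 and 64.9% of the combined sum in controls and 67.8, 53.7 and 60.6% in mutants, which overlapped (difference of -0.98 percentage points, exact permutation p of 0.9, adjusted 0.9). Leaving out 1 library at a time moved that difference between -4.52 and 2.51 percentage points.

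Shares within each subfamily were compared for Fos, Fosl2, Jun, Junb and Jund, and 4 of them were apart between the groups. Fos made up 27.9, 31.1 and 47.2% of the FOS sum in controls and 56.6, 49.7 and 63.3% in mutants, and Fosl2, which makes up nearly all the rest, took 71.6, 68.1 and 52.0% in controls and 41.5, 49.1 and 34.1% in mutants. In the JUN sum, Junb made up 30.7, 27.4 and 32.8% in controls and 44.0, 37.7 and 58.3% in mutants. Jund, the steady member, made up 46.6, 44.9 and 45.4% in controls and 32.0, 43.8 and 19.3% in mutants. For these 4 shares the groups did not overlap, each with an exact permutation p of 0.1 (adjusted 0.129). The share of Jun overlapped, at 24.0 ± 3.17% and 21.6 ± 2.82%.

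**Figure D3:**
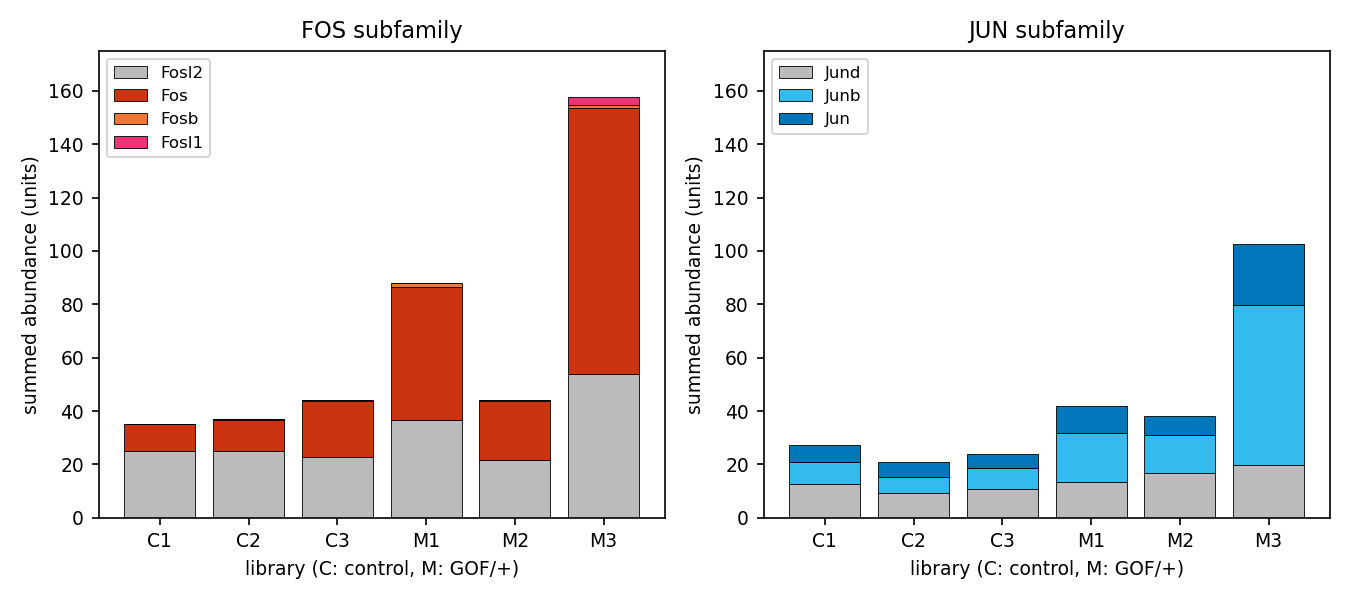
Summed abundance (units, linear axis from 0) of the FOS subfamily (left) and the JUN subfamily (right) in each library (C1 to C3 control, M1 to M3 GOF/+), stacked by gene. Grey Fosl2 and Jund take a smaller share of the bar in each mutant library than in any control library, while Fos and Junb take a larger one.

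The 6 tested members varied together, and each had its highest value in mutant replicate 3. Over the 6 libraries the Pearson correlation of log2(value + 1) ran from 0.602, between Fosl2 and Jund, to 0.978, between Junb and Atf3, across 15 pairs. This is a description in which all pairs share the same libraries and the difference between groups. The range over pairs of other genes was not computed. Of 8868 other genes with a mean of at least 5 units, those with the pattern most like the mean of the members included Plscr3, Vps37b, Syt12 and Card19 (r of 0.994 to 0.996 over the 6 libraries). The genes most like Fos included Anxa4 and Lrrc1, those most like Jun were Trim8, Gnai2 and the actin-severing protein gene Gsn, and those most like Atf3 were Vasp, Fam83g and Plxnb2 (r of 0.996 to 0.999).

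Other genes around AP-1 were then read from lists, as counts and medians. Over the 19202 genes with any value above 0, the median log2 difference was 0.01 and 8.29% were higher without overlap. Of those genes 10073 were higher and 9129 lower, or 9304 and 9555 without mutant replicate 3. Among 14 further bZIP genes, of the ATF, BATF, JDP2 and MAF groups, 12 were higher, 3 of them without overlap, and the median log2 difference was 0.41, or 0.21 without mutant replicate 3. Batf2, a BATF factor linked to interferon, had 15.8, 13.6 and 23.1 units in controls and 27.1, 26.1 and 60.4 units in mutants. Maff, a small MAF protein gene, had 3.77 ± 0.699 and 8.28 ± 5.22 units, and Atf5 had 7.05 ± 1.13 and 10.7 ± 2.24 units. All 3 had an adjusted p of 0.590 in limma.

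Of 30 early response genes outside AP-1, 27 were higher, 10 of them without overlap (8.29% of all genes were), and 3 lower. The median log2 difference was 0.40, or 0.18 without mutant replicate 3. Egr1, a zinc finger factor induced together with Fos, had 1.44, 3.38 and 2.26 units in controls and 6.25, 9.71 and 12.3 units in mutants (limma, adjusted p of 0.396). Here mutant replicate 2 was above mutant replicate 1, unlike for Fos. Gadd45b had 4.13 ± 0.954 and 7.76 ± 1.64 units and Ier2 had 20.2 ± 2.67 and 29.2 ± 4.12 units (limma, adjusted p of 0.590 each). Gadd45a, Btg1 and Klf10 overlapped between groups, with log2 differences of 0.03, -0.12 and 0.31.

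The kinases that carry signals to FOS and JUN proteins showed no common direction. Of 22 genes of the ERK, JNK and p38 cascades 21 were tested, 10 were higher and 11 lower, and the median log2 difference was -0.02. The ERK and p38 pathway kinase genes Map2k2 and Map2k3 had 54.4 ± 2.13 and 52.7 ± 2.97 units in controls and 73.4 ± 10.3 and 74.5 ± 16.5 units in mutants, and Rps6ka4, encoding the kinase MSK2 that acts on chromatin at early response genes, had 8.45 ± 0.690 and 15.4 ± 4.80 units (limma, adjusted p of 0.590 each).

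Factors that bind the Fos and Jun promoters were equally split, 5 higher and 5 lower of 10 tested from a list of 12, with a median of 0.02. Srf, encoding serum response factor, had 9.47 ± 0.429 and 13.4 ± 2.85 units. Its cofactor genes Elk1 and Mrtfb had 2.38 ± 0.479 and 9.70 ± 1.60 units in controls and 1.61 ± 0.413 and 7.70 ± 1.52 units in mutants (adjusted p of 0.590, 0.590 and 0.601 in limma).

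Of 11 regulators of AP-1 protein, 10 were tested, with 6 higher and 4 lower and a median of 0.06. Dusp6, a phosphatase gene induced by ERK that switches ERK off, had 7.99, 7.16 and 6.34 units in controls and 19.9, 13.2 and 91.3 units in mutants, with a log2 difference of 1.89 ± 0.64 (SE; adjusted p of 0.590 in limma). The mutant libraries stood in the same order as for Fos. Det1, part of the ubiquitin ligase that degrades c-JUN, had 5.56 ± 0.566 and 3.98 ± 1.11 units (limma, adjusted p of 0.590).

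Genes described as AP-1 targets were mostly higher. Of 30 listed, Fosl1 among them, 28 were higher, 13 of them without overlap (8.29% of all genes were), and 2 lower. The median log2 difference was 0.75, and without mutant replicate 3 it was 0.38, with 22 higher and 8 lower. The 13 without overlap included Mmp10, Plau, Timp1, Fosl1 and Ccl2, whose means were below 1 unit and which were not tested. Of the 21 tested, 0 passed the adjusted threshold in limma. The 7 of these with a control mean under 1 unit, Spp1, Fn1 and Plaur among them, reached the filter through the mutant libraries. No count at an unadjusted p is therefore drawn from the 21. Lmna, the lamin A gene, had 42.8, 36.4 and 36.2 units in controls and 68.7, 63.7 and 99.2 units in mutants (limma, adjusted p of 0.540). The matrix genes Spp1 and Fn1 had 0.420 ± 0.307 and 0.797 ± 0.721 units in controls and 3.87 ± 1.19 and 3.74 ± 0.874 units in mutants (adjusted p of 0.249 and 0.590 in limma). The urokinase receptor gene Plaur had 0.832, 0.354 and 0.949 units in controls and 2.40, 2.77 and 16.0 units in mutants. The cyclin gene Ccnd1 overlapped at a log2 difference of 0.06, and the Paneth cell protease gene Mmp7 at -0.48.

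Heat shock genes, which encode chaperones, were mostly lower. Of 13 tested, 11 were lower, 3 of them without overlap (8.37% of all genes tested were), and 2 higher, with a median log2 difference of -0.21, or -0.05 without mutant replicate 3. The mean log2 difference of the 13 from controls was -0.36, 0.08 and -0.48 in mutant replicates 1 to 3, so the list was not lower in mutant replicate 2. Hspb1, below the filter, was higher without overlap, at 0, 0 and 0.268 units in controls and 0.574, 1.06 and 1.72 units in mutants. Hsph1 had 92.3, 79.0 and 88.6 units in controls and 29.0, 69.6 and 21.0 units in mutants, Hspa8 had 1568 ± 126 and 1097 ± 195 units, and Hsp90aa1 had 246 ± 15.7 and 170 ± 58.5 units (limma, adjusted p of 0.590 each). Hsph1 was lowest in mutant replicates 1 and 3, the libraries in which Fos was highest.

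**Figure D4:**
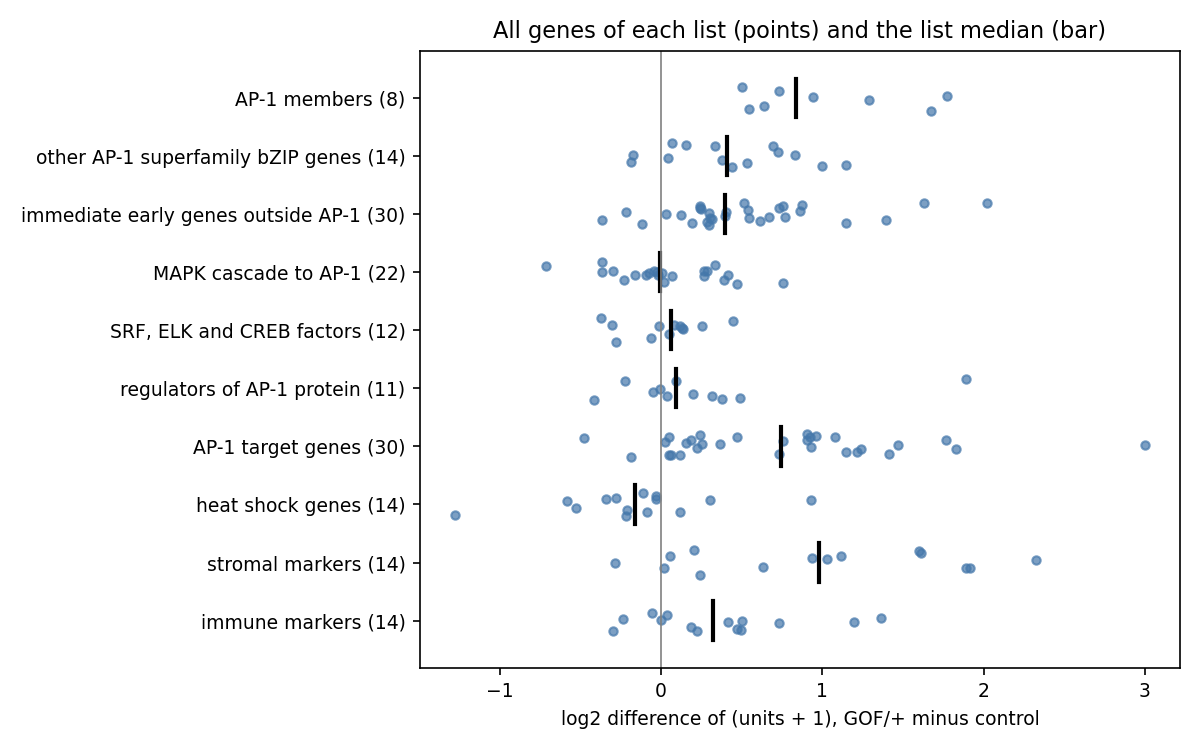
Log2 difference of (units + 1), GOF/+ minus control, of every listed gene, with no filter on low values (points, spread vertically for legibility) in 10 lists, with the number of genes in brackets and the list median as a black bar. Over all listed genes the AP-1 members, AP-1 targets and stromal markers have medians of 0.84, 0.75 and 0.98, while kinases and SRF, ELK and CREB factors lie around 0 and heat shock genes, at -0.16, below it.

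Of 14 stromal markers 13 were higher in mutants and 1, Thy1, was lower, with a log2 difference of -0.29. In bulk RNA more cells of a type and more RNA per cell cannot be told apart. For 11 of 14 stromal markers all mutant values exceeded all control values, against 8.29% of the 19202 genes. Only 7 of the 14 were tested, 5 of them with a control mean under 1 unit, and 0 passed the adjusted threshold in limma; those 5 reached the filter through the mutant libraries, so no other count is drawn from the 7. The summed level of all 14 was 6.69 to 12.6 units in controls and 22.9 to 51.7 units in mutants, with Pdgfra listed at 0 in all controls and at 0.103 to 0.204 units in mutants. Lists of 7 smooth muscle, 7 endothelial and 7 neural and glial markers had 6, 4 and 5 higher and 1, 3 and 2 lower. Of the higher ones, 3, 0 and 2 did not overlap (8.29% of all genes were higher without overlap). Summed immune markers ran from 35.1 to 76.3 units in controls and were 47.4, 45.1 and 138 units in mutant replicates 1 to 3. Of the 14, 10 were higher and 4 lower, or 7 and 7 without mutant replicate 3. Ptprc, Cd3g and Cd8a were among the lower ones, with log2 differences of -0.30, -0.06 and -0.23. Without overlap 4 of the 14 were higher (8.29% of all genes were), among them S100a8 and S100a9, listed at 0 in all controls. Epithelial markers, which check the labelled tissue, summed to 5189 to 6546 units in controls and 6032 to 8888 units in mutants. Summed enterocyte markers were 3820, 5382 and 10530 units in controls and 13140, 5941 and 25390 units in mutants. Summed Paneth markers were 376700, 176500 and 106100 units in controls and 61320, 179100 and 39850 units in mutants. For both sums mutant replicates 1 and 3 lay outside the controls and mutant replicate 2 did not. The distance of the sums from controls followed the order of Fos, replicate 3, then 1, then 2. Across control replicates 1 to 3 the enterocyte sum rose and the Paneth sum fell, while Fos rose. Not every marker followed its sum: in mutant replicate 3 the enterocyte genes Sis and Lct and the Paneth gene Mmp7 lay within their control ranges. The part of these cell types in the AP-1 values was not tested. Ctnnb1, which encodes β-catenin, had 256 ± 15.1 and 261 ± 24.4 units, a value that covers both alleles and does not check the mutation.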

How the data were processed

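Messenger RNA of 6 mouse crypt epithelium libraries was captured on poly-T beads, primed at random and read on Illumina instruments, per the labels' protocols. The authors deposited a signal for each of 24930 genes, a normalized abundance. The submitters' processing notes name kallisto 0.46.1, DESeq2 1.40.1 and the mm9 build, with no role or order, and the step that made the values is not given in the sources used here. Values are not whole numbers, and library totals ran from 645225 to 1268771 units. Among single-transcript genes with the lowest values, value times length lay within 0.15 of a whole step for 82.2 to 86.1% of genes, so levels are taken as per length. Steps also gave the relative reads per unit, from 0.886 to 1.42. Absolute depth is unknown, so no counting interval is given.

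Groups and replicate numbers came from the sample titles, and columns were matched by group and number, with 0 value columns left without a sample. Values were transformed to log2(value + 1), and the 11837 genes whose mean reached 1 unit were tested in limma 3.58.1 (R 4.3.3). The fit used a trend of variance on mean and no term but group, and p-values were adjusted by Benjamini-Hochberg, with a threshold of 0.05. The code was tested on simulated data. Sums and shares per library were compared with a two-sided exact permutation test, which cannot go below 0.10 for 3 libraries against 3. Members and lists were chosen with earlier results of these data known. In 7 lists the 3 tested members with the smallest p are named, other names are members of these lists chosen after their values were seen, and similar genes are those with the highest Pearson r among genes with a mean of at least 5 units. Some genes that these rules name are not reported here. Promoters and their start sites came from RefSeq (GRCm38.p6), matched by symbol for 7 of 8 members. The motifs were chosen after the expression values were seen. Python 3.11.15, pandas 2.3.3 and matplotlib 3.10.9 made the tables and figures.

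Alternatives were pseudocounts of 0.1 and 5, no filter or one at a mean of 5 units, 3 rescalings, no trend, array weights, a replicate block, sex as a covariate and leaving out each library. Counts and medians of lists over every listed gene, with no filter and without mutant replicate 3, were added after seeing the data.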

Additional observations from a re-analysis of the deposited data

How the results depend on the processing

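Each of the 6 tested AP-1 genes kept a positive log2 difference in all 17 alternatives, with 0 past the adjusted threshold in any of them. The range was 1.25 to 2.32 for Fos, 1.07 to 2.06 for Junb, 0.72 to 1.75 for Atf3, 0.49 to 1.28 for Jun, 0.26 to 0.68 for Jund and 0.20 to 0.84 for Fosl2, and the adjusted p in limma ran from 0.0845 (Fos, array weights) to 0.948 (Fosl2, without mutant replicate 3). Without a filter on low values all 8 genes were tested and 8 were higher. Over all genes, the number higher went from 0 to 1 with pseudocounts of 0.1 and 5, to 4 when rescaled to the total without Paneth genes and to 20 with array weights, whose estimation stopped before it converged, and ranged from 0 to 2 when libraries were left out. The number lower went from 2 to 7 with array weights, to 1 when rescaled by upper quartile or without trend, and to 0 with a pseudocount of 5, no filter, the sex covariate or the replicate block, and ranged from 0 to 3 when libraries were left out. The cause of these moves was not tested. The labels give no shared animal, litter or day for equal replicate numbers, and deviations of same-numbered libraries correlated at -0.292, 0.333 and 0.325, so the numbers were not taken as pairs. With the replicate block 0 AP-1 genes passed, and the lowest adjusted p among them was 0.383 in limma. Depth limits Fosl1, whose values in mutant replicates 1 and 2 are 2 and 1 of the smallest steps.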
